A study of Mus musculus with 2 samples.

Results

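*Ccl3*, *Ccl4*, *Ccl5*, *Xcl1* and *Cxcl13*, a chosen set of chemokine ligand genes known from T cells, were measured in single IL-10-producing CD4+ T cells from small intestine and spleen. They were 5 of 38 chemokine ligand symbols and of 28009 listed genes, and each had at least 1 molecule in both tissues. Cells sorted for CD4 and IL-10 eGFP came from IL-10eGFP Foxp3mRFP double reporter mice aged 8 to 16 weeks, in which a fluorescent protein reports *Il10* and another reports *Foxp3*, and cells positive for Foxp3 were kept. All mice had received 15 µg of anti-CD3 (clone 2C11), an antibody that activates T cells through their receptor, given on day 0 and again on day 2, and cells were taken 4 h later. Both tissues thus share genotype and treatment, no untreated library was analysed here, and how many mice were pooled was not given in the sources used here. The intestinal isolation that the methods describe yields intraepithelial and lamina propria lymphocytes, and which of these entered the library was not given either.

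Chemokines are small secreted proteins that guide the movement of leukocytes through receptors on the cell surface. *Ccl3*, *Ccl4* and *Ccl5* encode inflammatory CC chemokines and are known products of activated and cytotoxic lymphocytes, and *Ccl5* message is known to be held in memory T cells before they are triggered. *Xcl1* encodes a chemokine for XCR1 on cross-presenting dendritic cells, and *Cxcl13* encodes the ligand of CXCR5 that organises B cell follicles.

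Each tissue had 1 library and cells do not replicate a tissue, so no test between tissues or cell groups could be made. A unique molecular identifier (UMI) stands for 1 captured RNA molecule of any length, and levels are given as CPM, the UMIs of a gene per 1000000 UMIs of the same cells. All intervals in brackets are exact 95% intervals that cover counting error only. After filtering, 1277 intestinal cells with 5032225 UMIs (median 3696 per cell) and 1468 splenic cells with 9151420 UMIs (median 5398 per cell) were kept, and the libraries shared 0 barcodes. Because splenic cells were deeper, shares of cells with a UMI were compared after drawing 2094 UMIs from every cell, which left 1149 intestinal and 1438 splenic cells. This is called equal depth from here on. Of the T cell genes looked for, 4 were in the table and summed to 4550 CPM in small intestine and 3663 in spleen. *Cd8a* and *Cd8b1* together reached 353 in small intestine and 13.8 in spleen, where *Cd8a* was at 0. The macrophage and monocyte list summed to 65.8 and 17.8, with *Lyz2* and *Adgre1* at 0 in small intestine and *Csf1r* at 0 in spleen, and the natural killer list to 3.97 and 3.82 with *Ncr1* at 0 in both.

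In the GENCODE vM21 annotation of GRCm38, *Ccl5* (ENSMUSG00000035042, chr11:83525778-83530518, minus strand), *Ccl3* (ENSMUSG00000000982, chr11:83647844-83649355, minus strand) and *Ccl4* (ENSMUSG00000018930, chr11:83662584-83664683, plus strand) lie in 1 block. *Ccl3* and *Ccl4* are neighbours on opposite strands with a gap of 13.2 kb, while 117 kb separate *Ccl5* from *Ccl3*. *Xcl1* (ENSMUSG00000026573, chr1:164931644-164935527, minus strand) and *Cxcl13* (ENSMUSG00000023078, chr5:95956951-95961068, plus strand) lie elsewhere. The RefSeq promoter table (GRCm38.p6) held 3 of the 5 genes, and the 250 bases before each start site are shown because these genes ranged from *Ccl3*, with UMIs in 412 intestinal cells, to *Xcl1* and *Cxcl13*, with UMIs in few. Capitals mark matches on either strand to the TATA box letters TATAAA, to the AP-1 motif TGANTCA, to the NFAT core GGAAA and to the RUNX motif TGTGGT.
Ccl3, chr11:83649379-83649628, minus strand: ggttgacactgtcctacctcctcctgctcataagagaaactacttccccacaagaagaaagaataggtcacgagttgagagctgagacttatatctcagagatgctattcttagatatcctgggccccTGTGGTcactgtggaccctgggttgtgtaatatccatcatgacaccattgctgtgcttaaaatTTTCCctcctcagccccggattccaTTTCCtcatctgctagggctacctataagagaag
Xcl1, chr1:164935523-164935772, minus strand: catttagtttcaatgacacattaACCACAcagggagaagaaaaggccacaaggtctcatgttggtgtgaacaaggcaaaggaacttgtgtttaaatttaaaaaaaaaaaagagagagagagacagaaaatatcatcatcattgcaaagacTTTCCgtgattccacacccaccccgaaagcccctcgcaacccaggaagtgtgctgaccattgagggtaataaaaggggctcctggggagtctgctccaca
Cxcl13, chr5:95956689-95956938, plus strand: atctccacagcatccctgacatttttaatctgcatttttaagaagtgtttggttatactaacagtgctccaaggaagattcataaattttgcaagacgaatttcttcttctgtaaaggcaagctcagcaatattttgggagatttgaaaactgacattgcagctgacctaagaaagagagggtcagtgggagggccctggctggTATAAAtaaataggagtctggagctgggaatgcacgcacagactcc
The *Ccl3* window held TGTGGT 122 bases before the start and GGAAA, read on the other strand, at 59 and 34 bases. In *Xcl1*, both of these motifs were on the other strand, at 227 and 100 bases. *Cxcl13* held only TATAAA, at 46 bases. Over all 32851 windows of this length, GGAAA was in 55.6%, TGTGGT in 14.0%, TATAAA in 12.4% and TGANTCA in 6.75%, and none of the 3 windows shown held TGANTCA.

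*Ccl5* was by far the most abundant of the 5 genes in both tissues, and its level differed more between them than those of *Ccl3* and *Ccl4*. It had 245536 UMIs in small intestine, 4.88% of all UMIs of that library, and 25630 in spleen, 0.28%. The level was 48793 CPM (48600 to 48986) in small intestine and 2801 (2767 to 2835) in spleen, which is 17.4-fold higher in small intestine (17.2 to 17.6). Since *Ccl5* takes this share of the intestinal total, the CPM of all other intestinal genes are lower by that share.

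*Ccl3* and *Ccl4*, which encode MIP-1α and MIP-1β, had similar totals in both tissues. The level of *Ccl3* was 258 CPM (244 to 272) in small intestine and 193 (184 to 203) in spleen, from 1297 and 1769 UMIs. *Ccl4* was at 1203 (1173 to 1234) and 951 (931 to 971), from 6056 and 8701 UMIs. On the log2 scale, small intestine was higher by 0.42 (0.31 to 0.52) for *Ccl3* and by 0.34 (0.29 to 0.39) for *Ccl4*.

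These totals hide how few splenic cells carried the message. Leaving out the 1% of cells with most UMIs of the gene in each tissue, 13 intestinal and 15 splenic cells, changed the levels of *Ccl3* to 179 in small intestine and 72.3 in spleen, and the log2 ratio to 1.31 (1.16 to 1.46). For *Ccl4* the same step gave 948 and 533, a log2 ratio of 0.83 (0.77 to 0.89), and for *Ccl5* 47710 and 2071, a log2 ratio of 4.53. The cells left out were chosen by the counts compared. They held a larger share of each gene's UMIs in spleen, for *Ccl3* 63.2% against 31.5%, so the rise of the ratios follows by construction. Without cells that had a *Foxp3* UMI, which were 28 of the intestinal and 280 of the splenic cells, the log2 ratio was 0.10 (-0.00094 to 0.21) for *Ccl3*, 0.07 (0.02 to 0.12) for *Ccl4* and 3.78 for *Ccl5*. Under the choices plotted, the *Ccl5* ratio ran from 3.78 to 4.53 and that of *Ccl4* from 0.07 to 0.83. That of *Ccl3* ran from 0.10 to 1.31. Each thus moved by more than its counting interval. The ratios of *Ccl3* and *Ccl4* came near 0, whereas that of *Ccl5* did not.

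**Figure D1:**
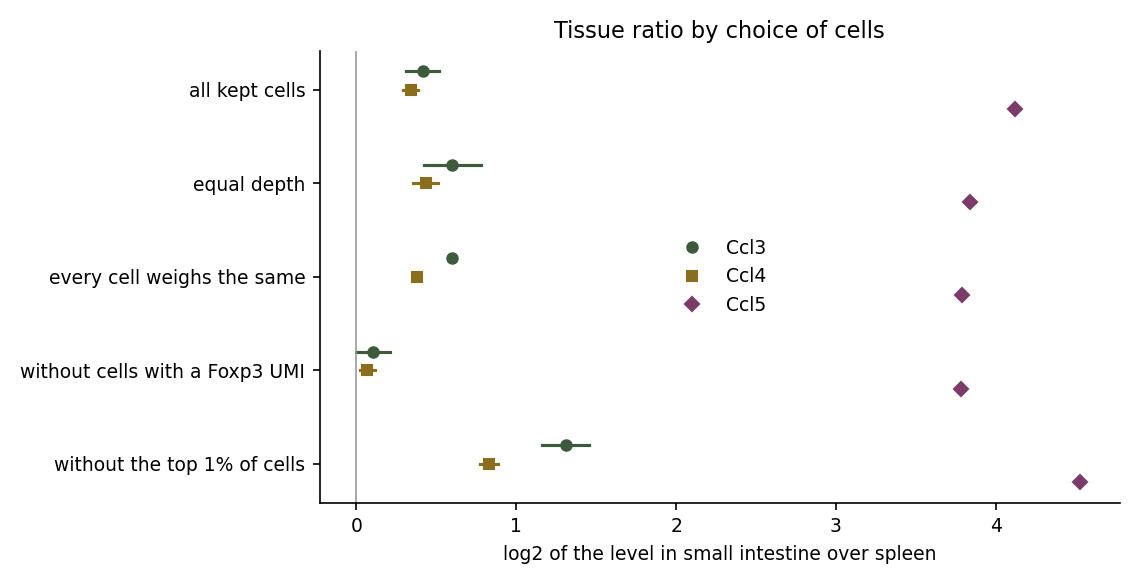
Log2 ratio of the level in small intestine over spleen for *Ccl3*, *Ccl4* and *Ccl5* under 5 choices of cells or weights, with exact 95% counting intervals as lines where one could be given (1 library per tissue). *Ccl5* lies between 3.78 and 4.53 throughout, and *Ccl3* and *Ccl4* lie nearest to 0 without cells that had a *Foxp3* UMI and farthest from it without the top 1% of cells.

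*Cxcl13* had 224 UMIs in small intestine and 1 in spleen, but 195 of the intestinal UMIs were in 1 cell, described further on. *Xcl1* was scarce, with 7 UMIs in 6 intestinal cells and 38 UMIs in 5 splenic cells. Its level was 1.39 CPM (0.56 to 2.87) in small intestine and 4.15 (2.94 to 5.70) in spleen, with log2 ratio -1.58 (-2.99 to -0.40). The 5 splenic cells held 11, 9, 8, 6 and 4 *Xcl1* UMIs, whereas no intestinal cell held more than 2. In 3 of these 5 splenic cells *Ccl3* and *Ccl4* had 1 UMI at most together. The cell with 9 *Xcl1* UMIs had 21 of *Ccl3* and 149 of *Ccl4*, and the cell with 6 had 4 of each. Thus few splenic cells carried *Xcl1*, each with several molecules, and 1 of the 5 was also rich in *Ccl4*.

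Of the 5 genes, 4 had at least 50 UMIs over both tissues, and 2 of these, *Ccl5* and *Cxcl13*, were at least 2-fold higher in small intestine, as were 10.4% of the 9032 genes with as many UMIs. None of the 4 was 2-fold higher in spleen, as were 13.6% of all genes. *Cxcl13* passed the minimum through its single intestinal cell. Chemokine ligands outside the 5 were far below *Ccl3*, *Ccl4* and *Ccl5*, and 17 of the 38 symbols were at 0 in both tissues. *Ccl20*, a CCR6 ligand, had 131 UMIs in 30 intestinal cells and 1 UMI in spleen. *Cxcl3*, a neutrophil attractant, had 56 and 4 UMIs, *Cxcl2*, another, had 35 and 22, and *Cxcl10*, a CXCR3 ligand, had 26 and 59. The 35 intestinal *Cxcl2* UMIs were in 4 cells, with 28 of them in 1 cell. *Ccl25*, known from thymus and gut epithelium, had 63 and 77 UMIs, with at most 3 in a cell, and *Ccl27a* had 35 and 47, with at most 2. *Ccl9*, which lies between *Ccl5* and *Ccl3*, had 7 UMIs in small intestine and 46 in 7 splenic cells, of which 20 were in 1 cell, and its neighbour *Ccl6* had 7 and 9. Of these 11 ligand symbols with at least 50 UMIs (*Ccl6* and *Xcl1* were below), 5 were 2-fold higher in small intestine and 1 in spleen.

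The share of cells with a UMI separated the tissues for all 3 abundant genes. At equal depth, *Ccl5* was detected in 98.3% of intestinal cells (97.3 to 98.9) and 28.2% of splenic cells (25.9 to 30.6), *Ccl4* in 50.4% (47.5 to 53.3) and 15.1% (13.3 to 17.0), and *Ccl3* in 22.2% (19.8 to 24.7) and 7.44% (6.14 to 8.92). Without drawing down, the shares were 99.5% and 44.6% for *Ccl5*, 58.5% and 22.5% for *Ccl4*, and 32.3% and 10.3% for *Ccl3*. *Xcl1* was detected in 0.174% and 0.278% of cells at equal depth, intervals that overlapped widely (0.0211 to 0.627 and 0.0758 to 0.711).

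These shares were set beside those of cells with UMIs of B cell genes. Cells with at least 2 UMIs of B cell genes numbered 6 in each tissue, with median depths of 4867 UMIs in small intestine and 8398 in spleen. *Ccl5* was present in all 6 of the intestinal ones, with 1 to 185 UMIs and a median of 4.5, and in 2 of the splenic ones, with at most 2. *Ccl4* and *Ccl3* each had 1 UMI in 1 of the intestinal B marker cells and 0 in the splenic ones. A few *Ccl5* UMIs in an intestinal cell, or 1 to 2 in a splenic cell, were thus also found in B marker cells. Whether these were B cells, doublets or T cells with stray B cell RNA was not tested, so they give no firm background level. As deposited, 881 intestinal and 80 splenic cells had 100 or more *Ccl5* UMIs. The intestinal B marker cell with 185 was in that class.

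Among cells with a UMI, the tissues differed in the opposite sense. The mean number of UMIs per positive cell at equal depth was 2.25 in small intestine and 4.42 in spleen for *Ccl3*, and 5.0 and 12.4 for *Ccl4*, whereas for *Ccl5* it was 108 and 26.3. Without drawing down, the richest intestinal cell had 110 *Ccl3* UMIs and the richest splenic cell 380. For *Ccl4* the maxima were 258 and 1066, and for *Ccl5* 937 and 704. Median UMIs per positive cell at equal depth were 1 in small intestine and 2 in spleen for *Ccl3*, and 2 and 4 for *Ccl4*. As deposited they were 1 and 3 for *Ccl3* but 3 and 2 for *Ccl4*, so the order for *Ccl4* changed with the setting. At equal depth, intestinal cells thus had *Ccl3* and *Ccl4* more often and in smaller numbers, and splenic cells less often with a long upper tail.

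**Figure D2:**
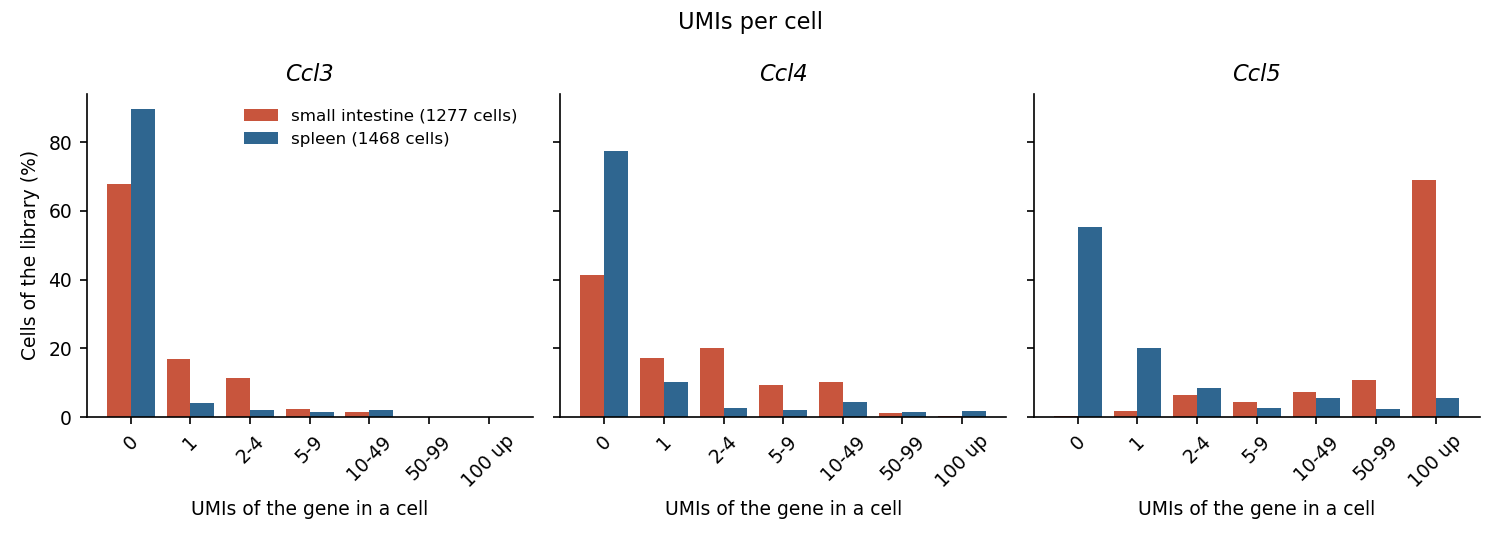
Share of cells (%) by the number of *Ccl3*, *Ccl4* and *Ccl5* UMIs they held as deposited, in 1277 intestinal and 1468 splenic cells (1 library each). *Ccl5* reached 100 or more UMIs in 881 intestinal and 80 splenic cells, while *Ccl3* and *Ccl4* were at 0 in 1317 and 1138 splenic cells.

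Of the *Ccl3* UMIs, 50% were held by 9 splenic cells, 0.613% of the library, and by 42 intestinal cells, 3.29%. For *Ccl4* these were 19 splenic cells (1.29%) and 59 intestinal cells (4.62%), and for *Ccl5* 36 (2.45%) and 302 (23.6%). The running share of UMIs climbed steeply for all 3 genes in spleen and least steeply for intestinal *Ccl5*. Over genes with at least 500 UMIs in the tissue, 50% of the UMIs lay in a median of 12.7% of splenic and 14.2% of intestinal cells. In spleen, all 3 genes had 50% of their UMIs in under 5% of the cells, as had 1.57% of 2550 genes, and they took ranks 1, 3 and 6 from the most concentrated, with *Mt1*, *Dapl1* and *Ly6c2*, named after their values were seen, at the ranks between them. In small intestine *Ccl3* and *Ccl4* but not *Ccl5* did so, as had 0.873% of 1375 genes, at ranks 6 and 12, while *Ccl5* ranked 1238. By this measure *Ccl5* was thus among the most concentrated genes of the splenic library and among the least concentrated of the intestinal one. Genes with few UMIs cannot spread them over many cells, and genes were not matched for abundance. The intestinal rank of *Ccl5* is therefore not read as an even spread. Its intestinal counts ran from 5 UMIs at the 10th percentile of cells to 393 at the 90th.

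**Figure D3:**
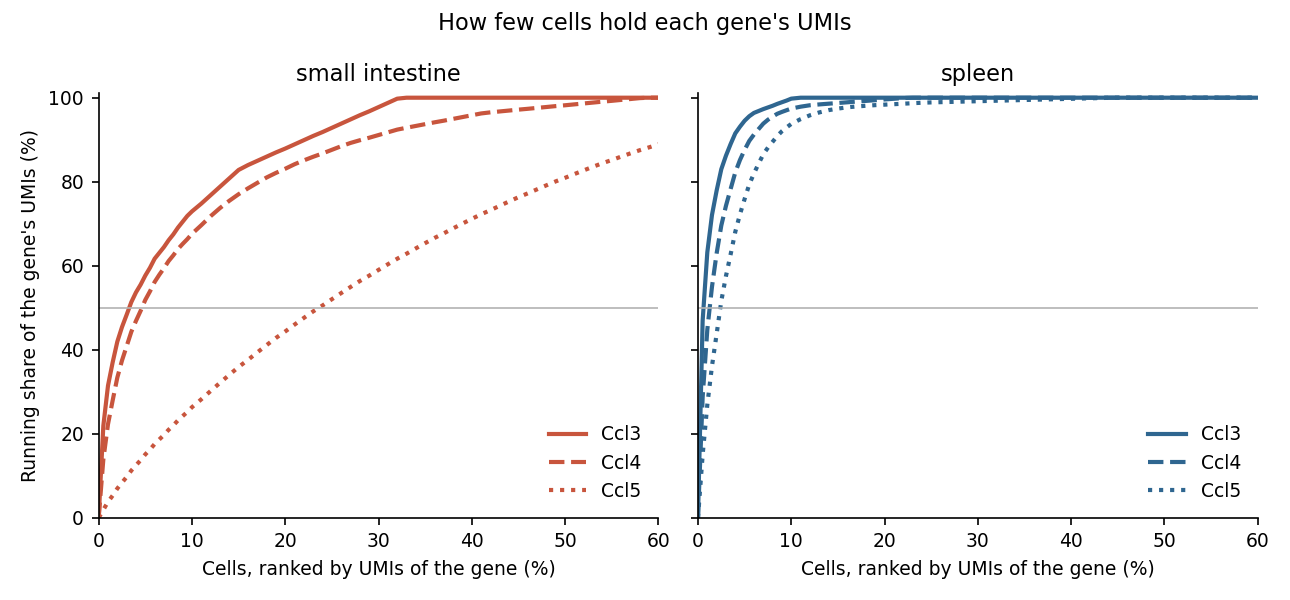
Running share of a gene's UMIs (%) over cells ranked from the richest, with the horizontal axis drawn to 60% of the cells and a grey line at 50% of the UMIs. In spleen the curves cross that line at 0.613% (*Ccl3*), 1.29% (*Ccl4*) and 2.45% (*Ccl5*) of the cells, and in small intestine at 3.29%, 4.62% and 23.6%.

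A single splenic cell held 380 *Ccl3* and 1066 *Ccl4* UMIs among its 12996 UMIs, beside 219 of *Ccl5*, 32 of *Ifng* and 7 of *Il10*. This cell gave 21.5% of all splenic *Ccl3* UMIs and 12.3% of those of *Ccl4*. Without it the splenic levels were 152 CPM (144 to 160) for *Ccl3* and 835 (817 to 854) for *Ccl4*. The next cell, with 27403 UMIs, held 129 *Ccl3* and 326 *Ccl4* UMIs and 1 of *Ccl5*, and another held 250 *Ccl4* UMIs with 31 of *Ccl3* and 0 of *Ccl5*. In small intestine the richest *Ccl3* cell had 110 UMIs beside 123 of *Ccl4*, 591 of *Ccl5* and 43 of *Ifng*. None of these cells was called a doublet.

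The cells that held 50% of the UMIs also carried cytokine message more often than the library as a whole. Of the 9 splenic *Ccl3* cells, 9 had an *Ifng* UMI and 8 an *Il10* UMI, beside 15.7% and 64.9% of all splenic cells. Their median depth was 9525 UMIs against 5398 over all cells, and the part of depth in these shares was not tested. Of the 19 splenic *Ccl4* cells, 15 had *Ifng*, 17 *Il10* and 8 *Mki67*, a proliferation gene seen in 13.0% of all splenic cells. In small intestine, 33 of the 42 *Ccl3* cells and 45 of the 59 *Ccl4* cells had *Ifng*, against 52.5% of all cells, at median depths of 4347 and 4437 against 3696. *Foxp3* was in 0 of the *Ccl3* cells of either tissue and in 1 of the splenic *Ccl4* cells, beside 2.19% of all intestinal and 19.1% of all splenic cells. With so few cells, these counts are not read as an absence of *Foxp3*.

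Clusters were made in each tissue without any chemokine ligand gene and are called by their leading genes. In spleen, the 276 cells of the cluster led by *Nkg7*, *S100a6* and *Cxcr6* (cluster 2) held 71.4% of the *Ccl5*, 50.3% of the *Ccl4* and 44.4% of the *Ccl3* UMIs. Its levels were 11675 CPM (11506 to 11845) for *Ccl5*, 2794 (2711 to 2878) for *Ccl4* and 502 (467 to 538) for *Ccl3*. The cluster led by *Hmgb2* and *Stmn1*, genes of dividing cells (cluster 3), held 49% of the *Ccl3* and 34.5% of the *Ccl4* but 12.6% of the *Ccl5* UMIs, at 345, 1193 and 1284 CPM. Only 2 cells held 50% of its *Ccl3*, and these were the richest splenic *Ccl3* cells described above.

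The other splenic clusters were lower. The cluster led by *Tnfrsf4*, *Tnfrsf9* and *Ctla4*, whose regulatory T cell list was the highest of the tissue at 3916 CPM (cluster 4), had 606 CPM of *Ccl4*, 530 of *Ccl5* and 42.4 of *Ccl3*. The cluster led by *Malat1*, *Tnfsf8* and *Maf* (cluster 1), with the highest summed level of follicular helper genes, had 1837 of *Ccl5*, 168 of *Ccl4* and 24.5 of *Ccl3*, and 1 cell held over 50% of its *Ccl3* and 1 cell over 50% of its *Ccl4*. In the clusters led by *Klf2*, *Pdcd4* and *Ccr7* (cluster 5) and by *Ncl* and *Eif5a* (cluster 6), *Ccl3* was at 3.36 and 3.24 and *Ccl4* at 16.8 and 18.4 CPM, and no cell held more than 2 UMIs of either.

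Shares of cells at equal depth also set splenic clusters 2 and 5 apart. *Ccl4* was in 39.0% (33.2 to 45.1) of splenic cluster 2, with median depth 5215.5 UMIs before drawing, and in 3.03% (1.12 to 6.48) of cluster 5, with 3898.5. *Ccl3* was in 21.9% (17.1 to 27.4) and 1.52% (0.314 to 4.36), and *Ccl5* in 61.7% (55.6 to 67.5) and 18.2% (13.1 to 24.3). The highest *Ccl5* count in cluster 5 was 95 UMIs, and 3 of its cells had 20 or more.

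In small intestine, 6 of the 7 clusters had all 3 genes at high levels. *Ccl5* ranged from 37942 CPM in the cluster led by *Gzma*, *Tnfrsf4* and *Serpinb6b* (cluster 6) to 62572 in that led by *Tnfrsf4*, *Plac8* and *Lag3* (cluster 1). *Ccl4* ranged over these 6 from 958 in cluster 2, led by *Gzma* and *Cd7*, to 1855 in cluster 1, and *Ccl3* from 149 in cluster 6 to 404 in cluster 3, led by *Lag3*, *Tnfrsf4* and *Maf*. The cluster led by *Gzma*, *Cd8a* and *Cd7* (cluster 5), with 2245 CPM of *Cd8a* and *Cd8b1* together, lay within these ranges for all 3 genes, at 54616, 1068 and 267. Leaving out intestinal cells with UMIs of both *Cd8a* and *Cd8b1*, which kept 1156, gave log2 tissue ratios of 0.42 for *Ccl3*, 0.34 for *Ccl4* and 4.10 for *Ccl5*.

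The exception was the intestinal cluster of 172 cells led by *Capg*, *Emb* and *Tmsb10* (cluster 4), with the highest summed level of Th17 genes at 1285 CPM. Its naive or central memory (235), follicular helper (408) and cycling (1177.5) lists were also the highest of the intestinal clusters, and its cytotoxic list the lowest (4804). The regulatory T cell list was at 2168 in it, beside 2167 in cluster 1 and 2238 in cluster 6. All 5 genes of that list were higher in cluster 4 than in the other intestinal cells, against 2 in cluster 1 and 2 in cluster 6. Only 7.52% of intestinal cells had a UMI of the Th17 list, so the cluster is not named by it. Cluster 4 had *Ccl5* at 2833 (2707 to 2964), *Ccl4* at 41.8 (27.8 to 60.5) and *Ccl3* at 5.98 (1.63 to 15.3). Its median was 4 *Ccl5* UMIs per cell, and 15 of its cells had 20 or more. The intestinal B marker cells had a median of 4.5, but B cell genes were themselves highest in cluster 4, at 55.3 CPM. How many B marker cells lay in it was not examined, so these medians are not read as independent. The ratio of *Ccl5* to *Ccl4* UMIs was 67.7 in cluster 4, 40.5 in the whole library and 32.4 to 57.6 in the other intestinal clusters. Both genes were thus lower in cluster 4, at a ratio not far above that of the other clusters. At equal depth *Ccl4* was in 8.16% (4.29 to 13.8) of its cells and in 44.5% to 61.9% of the other clusters. This cluster also held 90.6% of the *Cxcl13* UMIs, nearly all of them from 1 cell.

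**Figure D4:**
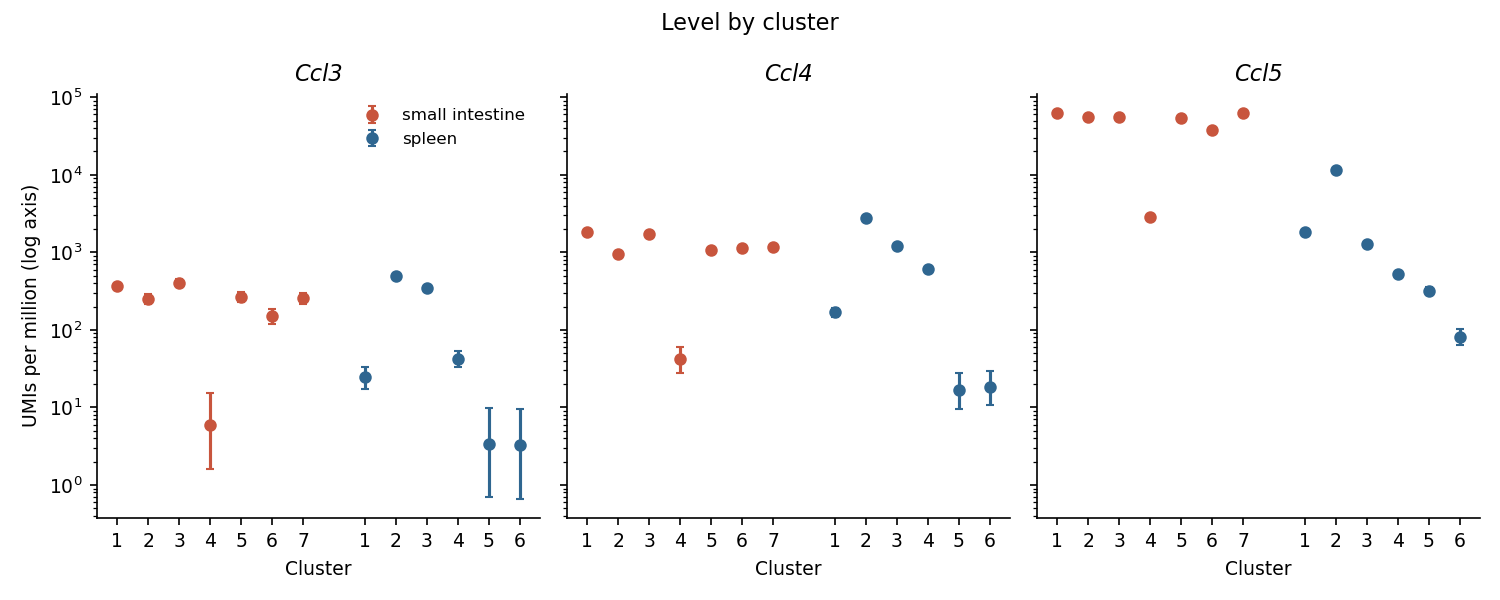
Level in CPM (log axis) of *Ccl3*, *Ccl4* and *Ccl5* in the 7 intestinal and 6 splenic clusters, with exact 95% Poisson intervals as bars (1 library per tissue). Intestinal cluster 4 and splenic clusters 5 and 6 lie lowest for *Ccl3* and *Ccl4*, and splenic cluster 2 lies highest of the spleen for all 3 genes.

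*Ccl3* and *Ccl4* were found in the same cells in both tissues. At equal depth, *Ccl4* was in 74.1% (68.3 to 79.4) of the 255 intestinal cells with *Ccl3* and in 43.6% (40.3 to 46.9) of those without it. In spleen it was in 74.8% (65.4 to 82.7) of the 107 cells with *Ccl3* and in 10.3% (8.71 to 12.1) of those without. In the other direction, *Ccl3* was in 32.6% (28.8 to 36.6) of intestinal cells with *Ccl4* and 11.6% (9.07 to 14.5) of those without, and in 36.9% (30.4 to 43.7) and 2.21% (1.46 to 3.20) of splenic cells. *Ccl3* was thus seen with *Ccl4* more often than *Ccl4* with *Ccl3*. This order follows from the numbers of cells, since *Ccl4* was in 579 intestinal and 217 splenic cells and *Ccl3* in 255 and 107. The gap between positive and negative cells was wider in spleen, a difference between libraries that was not tested.

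The pair also stood together within clusters. In splenic cluster 2, *Ccl3* was in 50.5% (40.5 to 60.4) of the 105 cells with *Ccl4* and in 3.66% (1.35 to 7.79) of the 164 without. In intestinal cluster 3 these shares were 38.8% (29.4 to 48.9) and 15.1% (7.77 to 25.4). The intervals of cells with and without *Ccl4* were apart in splenic clusters 1 to 4 and intestinal clusters 1, 3 and 7, and they overlapped in intestinal clusters 2, 5 and 6. In intestinal cluster 4 and splenic clusters 5 and 6, with 12, 6 and 5 cells with *Ccl4*, none of these had *Ccl3*.

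Summed over the libraries there were 4.67 *Ccl4* UMIs for each of *Ccl3* in small intestine and 4.92 in spleen. Single cells varied widely, and among those rich in the pair the median part of *Ccl3* was smaller than in these sums. Among the 79 intestinal and 87 splenic cells with at least 20 UMIs of the pair, *Ccl3* made up a median of 6.67% and 9.93% of them, from 0% at the 10th percentile to 36.9% and 33.6% at the 90th. In 17 of these intestinal and 10 of these splenic cells *Ccl3* was at 0. The 9 splenic cells with 50% of the *Ccl3* and the 19 with 50% of the *Ccl4* had 6 cells in common, 66.7% of the first and 31.6% of the second set.

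Within spleen, *Ccl5* was less closely tied to *Ccl3* and *Ccl4* than these were to each other. At equal depth it was in 60.8% (54.0 to 67.4) of splenic cells with *Ccl4* and 22.4% (20.1 to 24.9) of those without, and in 70.1% (60.5 to 78.6) of cells with *Ccl3* and 24.9% (22.6 to 27.3) of those without. Of the 197 splenic cells with at least 20 UMIs of *Ccl4* and *Ccl5* together, *Ccl4* made up a median of 9.66%, but from 0% at the 10th to 98.0% at the 90th percentile, so some cells carried nearly only 1 of these genes. Among 1093 such intestinal cells the median was 0.738% and the 90th percentile 5.36%. In small intestine *Ccl5* was in nearly every cell, and 16.4% of cells had all 3 genes at equal depth, 33.9% had *Ccl4* with *Ccl5*, 42.2% had *Ccl5* alone and 1.65% had none. In spleen 64.7% had none, 18.3% had *Ccl5* alone, 4.80% had *Ccl4* alone, 4.73% had *Ccl4* with *Ccl5* and 4.45% had all 3. These shares count 1 UMI as detection, which B marker cells also reached for *Ccl5*, so *Ccl5* alone is not read as a class of cells. With at least 10 UMIs of each gene as deposited, *Ccl5* was in 67.6% (58.0 to 76.1) of splenic cells with *Ccl4* and 8.92% (7.45 to 10.6) of the others.

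*Ccl3* and *Ccl4* were highest in the cells with most *Ccl5*. In the 80 splenic cells with 100 or more *Ccl5* UMIs, *Ccl4* was at 10021 CPM (9733 to 10315) and *Ccl3* at 2251 (2116 to 2393), against 195 (183 to 208) and 23.4 (19.2 to 28.1) in the 814 cells without *Ccl5*. These 80 cells held 52.7% of the splenic *Ccl4* and 58.3% of the *Ccl3* UMIs. In the 881 intestinal cells with as many *Ccl5* UMIs, *Ccl4* was at 1582 (1541 to 1623) and *Ccl3* at 331 (313 to 351), both below the splenic cells of the same class. Of these intestinal cells 70 had 20 or more *Ccl4* UMIs, and of the splenic ones 36 did. Among cells with 20 to 99 *Ccl5* UMIs, *Ccl4* was at 483 (433 to 537) in small intestine and 2453 (2311 to 2602) in spleen. In each class of *Ccl5* UMIs from 1 upward, *Ccl3* and *Ccl4* were thus higher in spleen than in small intestine, in the opposite direction to the totals, with overlapping intervals only for *Ccl3* at 5 to 19 UMIs. Splenic *Ccl3* was at 123 in cells with 1 to 4 *Ccl5* UMIs, where 2 of 420 cells held 129 and 97 *Ccl3* UMIs, and at 52.6 in cells with 5 to 19, so the order of these classes is not read. These classes were set by counts as deposited and were not matched for depth. Median depths in small intestine and spleen were 3188 and 6148.5 UMIs for 1 to 4 *Ccl5* UMIs, and 3818 and 5196.5 in the top class. The top class held 881 intestinal but only 80 splenic cells, so it does not set like parts of the libraries side by side. Intestinal B marker cells, with a median of 4.5 *Ccl5* UMIs, also reached the low classes. The part of these limits in the reversed direction was not tested.

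**Figure D5:**
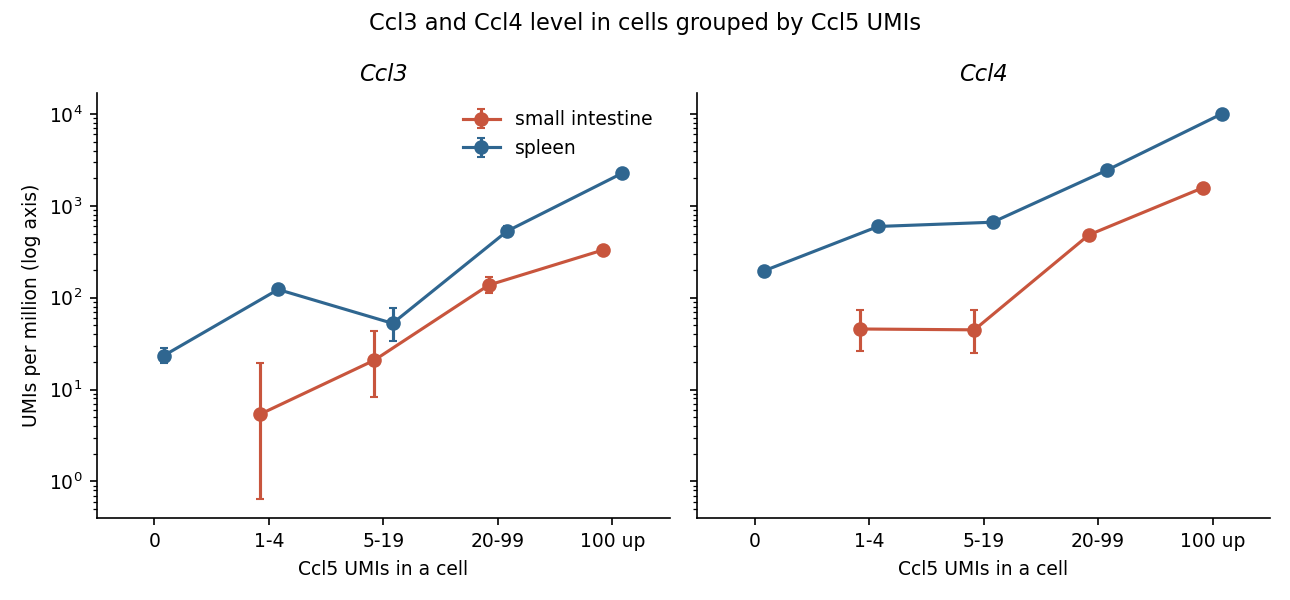
Level in CPM (log axis) of *Ccl3* and *Ccl4* in cells grouped by their *Ccl5* UMIs as deposited, with exact 95% Poisson intervals as bars (1 library per tissue). The 6 intestinal cells without *Ccl5* had 0 UMIs of both genes and are not drawn, and in each class shown the splenic point lies above the intestinal one.

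Over cells at equal depth, the Pearson correlation of log2(count + 1) between *Ccl3* and *Ccl4* was 0.43 over 1149 intestinal and 0.72 over 1438 splenic cells, the highest of either gene in both tissues of 4400 intestinal and 4394 splenic genes compared. The cells of a tissue share a library, so these are descriptions. Next to *Ccl3* in spleen came *Ccl5* (0.46), *Nkg7* (0.39), *Ifng* (0.26) and *Havcr2* (0.25), which encode a granule protein, interferon-γ and the co-inhibitory receptor TIM-3. Next to *Ccl4* came *Ccl5* (0.54), *Nkg7* (0.50), *Gzmb* (0.31) and *Cxcr6* (0.30). For splenic *Ccl5* the order was *Nkg7* (0.57), *Ccl4* (0.54), *Ccl3* (0.46), *Id2* (0.40) and *Cxcr6* (0.35). In small intestine *Ccl5* stood with *Nkg7* (0.63), *Gzmb* (0.60), *Gzma* (0.50), *Ccl4* (0.36) and *Plac8* (0.35). For intestinal *Ccl4* these were *Ccl3*, *Ccl5* (0.36), *Nkg7* (0.29), *Gzmb* (0.23) and *Ifng* (0.18), and for *Ccl3* they were *Ccl4*, *Ccl5* (0.24), *Nkg7* (0.18), *Gzmb* (0.17) and *Nr4a2* (0.14), the weaker of which are no more than values in sparse counts.

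Cells with *Ccl4* were then set against cells without it at equal depth, over chosen gene lists and genes with at least 50 UMIs. In spleen, 4 of 7 cytotoxic granule genes were at least 2-fold higher in the 217 cells with *Ccl4*, as were 1.51% of all 5510 genes. These were *Nkg7* with a log2 difference of 2.15 (2.05 to 2.25), *Gzmb* with 1.80 (1.68 to 1.91), *Ctsw* with 1.23 (0.60 to 1.84) and *Gzmk* with 1.17 (0.53 to 1.78). The median over the list was 1.17, against -0.00095 over all genes. In small intestine 1 of 8, *Prf1* (perforin), was 2-fold higher in the 579 cells with *Ccl4*, with 1.15 (0.36 to 1.99), as were 0.264% of 4922 genes, and the list median was 0.38 against -0.06.

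Few genes of the T cell receptor response and cytokine list were 2-fold apart by *Ccl4*. In spleen 1 of 14 was 2-fold higher, *Ifng* with 1.76 (1.29 to 2.22), and 1 was 2-fold lower, the activation marker *Cd69* with -1.16 (-1.84 to -0.55), with a list median of -0.03, and 2.87% of all genes were 2-fold lower. *Nr4a1*, an early gene of receptor signalling, was at -0.02 (-0.70 to 0.60) and *Egr1* at 0.41 (-0.20 to 0.99). Its relatives *Nr4a2* and *Nr4a3* were below the minimum, with 42 and 32 UMIs. They were at 1.49 (0.45 to 2.47) and -1.41 (-4.52 to 0.56). In small intestine 0 of 15 were 2-fold higher and 2 were 2-fold lower, the Th17 cytokines *Il17a* with -2.97 (-4.08 to -2.01) and *Il22* with -3.43 (-5.11 to -2.12), as were 0.792% of all genes. *Ifng* was at 0.65 (0.45 to 0.85) and *Nr4a2* at 0.93 (0.57 to 1.29). In the same tissue *Nr4a1* was at 0.37 (0.05 to 0.70) and *Egr1* at -0.09 (-0.44 to 0.27). The values of *Il17a* and *Il22* rest on few cells. As deposited, *Il17a* was in 52 intestinal cells with up to 48 UMIs in a cell, and *Il22* in 30 with up to 33. Of the transcription factors, 1 of 8 was 2-fold higher in spleen, *Id2* with 1.37 (1.20 to 1.54), and 0 of 8 in small intestine, with *Runx3* at 0.76 (0.30 to 1.20) and 0.21 (-0.02 to 0.44).

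Split by the cytokine genes at equal depth, the differences of *Ccl3* and *Ccl4* were larger by *Ifng* than by *Il10*. In spleen, the 124 cells with an *Ifng* UMI had *Ccl3* at 859 CPM against 90.9 in the 1314 others, a log2 difference of 3.24 (2.97 to 3.51). *Ccl4* was at 4236 against 575, a difference of 2.88 (2.77 to 2.99), and *Ccl5* at 11092 against 2828, a difference of 1.97 (1.91 to 2.03). In small intestine the log2 differences by *Ifng* were 0.70 (0.45 to 0.94) for *Ccl3*, 0.87 (0.76 to 0.98) for *Ccl4* and 0.16 (0.14 to 0.17) for *Ccl5*. By *Il10*, the gene behind the sort, they were 0.55 (0.28 to 0.81), 0.83 (0.71 to 0.94) and 0.16 (0.10 to 0.21) in spleen and 0.31 (0.05 to 0.56), 0.57 (0.45 to 0.68) and -0.17 (-0.18 to -0.15) in small intestine. As deposited, the splenic differences by *Il10* were 1.58 for *Ccl3* and 1.57 for *Ccl4*, and that of *Ccl5* had the opposite sign, -0.13 (-0.16 to -0.09). All cells were sorted for the *Il10* reporter, so cells without an *Il10* UMI may hold undetected message. Splenic cells with an *Il10* UMI numbered 952 as deposited and 661 at equal depth. The splits by *Ifng* and *Il10* are thus not alike, and the part of detection in their sizes was not tested.

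By *Foxp3*, the 3 genes were lower in the 124 splenic cells with a UMI than in the others at equal depth, by -3.47 (-3.79 to -3.17) for *Ccl5*, -0.70 (-1.33 to -0.13) for *Ccl3* and -0.31 (-0.53 to -0.09) for *Ccl4*. As deposited, with 280 such cells, the differences were -3.39 for *Ccl5*, -2.68 for *Ccl3* and -2.01 for *Ccl4*, so the sizes for *Ccl3* and *Ccl4* were much smaller at equal depth. In small intestine 28 cells had a *Foxp3* UMI as deposited, with differences of -2.98 for *Ccl3*, -2.35 for *Ccl4* and -2.38 for *Ccl5*. By *Havcr2* at equal depth, the splenic differences were 2.86 (2.57 to 3.14) for *Ccl3*, 2.46 (2.33 to 2.59) for *Ccl4* and 2.58 (2.52 to 2.64) for *Ccl5*. Those of small intestine were -0.18 (-0.51 to 0.13), 0.71 (0.60 to 0.83) and 0.09 (0.07 to 0.11). By *Lag3*, another co-inhibitory receptor, the differences at equal depth were 1.81, 1.25 and 1.44 in spleen and 0.62, 0.74 and 0.53 in small intestine. As deposited, those by *Lag3* were 1.56, 1.21 and 0.27 in spleen and -0.08 (-0.43 to 0.28), 0.36 and 0.45 in small intestine. By *Gzmb*, again at equal depth, the splenic differences were 2.28, 2.82 and 2.21. In small intestine, where 50 cells had no *Gzmb* UMI, they were 4.72 (3.49 to 6.34) for *Ccl4* and 3.51 (3.38 to 3.64) for *Ccl5*, and *Ccl3* had 573 UMIs in the 1099 cells with *Gzmb* and 0 in the others. All of these count UMIs in a few rich cells, as described above, and the differences between the tissues were not tested.

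Between tissues, the receptors and cytotoxic genes gave the setting of these ligands. *Ccr1*, a receptor of *Ccl3* and *Ccl5*, was at 18.7 CPM in small intestine and 2.19 in spleen. *Cxcr5*, the receptor of *Cxcl13*, was at 1.59 and 66.3, *Cxcr3* at 66.0 and 160, and *Xcr1*, the receptor of *Xcl1*, had 2 and 0 UMIs. Over all 9032 genes, 10.4% were at least 2-fold higher in small intestine and 13.6% in spleen. Of 8 cytotoxic granule genes, 6 were at least 2-fold higher in small intestine, among them *Gzma* with a log2 ratio of 8.95 (8.82 to 9.09) and *Nkg7* with 1.66 (1.62 to 1.69), and 0 in spleen. Of 20 receptor response and cytokine genes, 9 were 2-fold higher in small intestine, such as *Ifng* with 2.56 (2.42 to 2.70), and 7 in spleen, such as *Irf8* with -3.18 (-3.33 to -3.03). Of 8 transcription factors 3 were 2-fold higher in small intestine, *Id2* (2.24), *Runx3* (1.70) and *Klf13* (1.16), the last known for late *Ccl5* transcription in T cells, and *Batf* (-1.02) was so in spleen. The median over all 9032 genes was -0.02.

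The intestinal cell with most *Cxcl13* lacked the defining T cell genes. It held 195 *Cxcl13* UMIs among 1607 in all, beside 77 of *Mfge8* and 65 of *Clu*. *Mfge8* and *Clu* were 1884-fold and 2714-fold above their level in the intestinal library, which includes the cell. *Cd3d*, *Cd3e*, *Cd3g* and *Cd4* were at 0 in it, as were *Ccl3*, *Ccl4*, *Il10* and all B cell and macrophage markers looked for, and it held 1 UMI of *Ccl5*. Of the stromal and follicular dendritic list it had 2 UMIs of *Cr2* and 0 of the other 4 genes. *Cr2*, *Clu* and *Mfge8* are known from follicular dendritic cells, and the origin of this cell was not tested. Without it, *Cxcl13* had 29 UMIs in 22 intestinal cells, at 5.76 CPM (3.86 to 8.28), with at most 5 in a cell, and in spleen it had 1 UMI.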

How the data were processed

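Single-cell libraries of IL-10+ CD4+ T cells, 1 each of small intestine and spleen, were analysed from the deposited tables of UMI counts per gene and cell. The authors trimmed reads with Trimmomatic and counted UMIs with Cell Ranger against mm10, and the submitters' notes list mm8 beside mm10. Versions were not given in the sources used here.

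Of 1474 intestinal and 1738 splenic barcodes, cells over 3 median absolute deviations from the median in quality measures (135 and 90) and cells called G2/M by cyclone with 1000 iterations (62 and 180) were removed (R 4.3.3, scran 1.30.0, scuttle 1.12.0). Scrublet (scanpy 1.11.5) called 11 intestinal and 2 splenic doublets among kept cells, which stayed in. Clusters were found per tissue without chemokine ligand genes, on 20 principal components and 10 neighbours (bluster 1.12.0). Equal depth means a random draw of 2094 UMIs per cell, without the 128 and 30 shallower cells. Levels carry exact Poisson, shares Clopper-Pearson and ratios conditional binomial intervals (Python 3.11.15, scipy 1.17.1). Ratio intervals were tried on simulated independent Poisson counts with 1 rate per gene, which leave out spread between cells. At equal depth the variance over cells was 46.3 times the mean for splenic *Ccl4* and 116 times for splenic *Ccl5*, so that trial does not cover these genes. Genes needed 50 UMIs to be compared by fold.

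The 5 genes and all lists were chosen with earlier results of these data known. Named beside them were other chemokine ligands with 50 UMIs, the 5 closest correlates per gene and tissue among genes in at least 5% of cells, and fixed lists of receptors, receptor response and cytokine, cytotoxic granule and transcription factor genes. Other cell filters, weights, depths, thresholds and clusterings were tried as alternatives. Of the receptor list, 1 gene is not reported here.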

Additional observations from a re-analysis of the deposited data

How the results depend on the processing

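The log2 ratio of small intestine over spleen moved to 0.10 (*Ccl3*), 0.069 (*Ccl4*) and 3.78 (*Ccl5*) without cells with a *Foxp3* UMI, to 1.31, 0.83 and 4.53 without the 1% of cells with most UMIs, and to 0.60, 0.43 and 3.84 at equal depth, where *Cxcl13* was at 4.49 because its richest cell was too shallow to be drawn. The rise without the 1% of cells follows by construction, since they were chosen by the counts compared and held a larger share of the UMIs in spleen. With every cell weighing the same the log2 ratio was 0.60 for *Ccl3* and 3.79 for *Ccl5*. The *Ccl5* ratio was 4.15 with G2/M cells kept, 4.14 without doublets and 4.10 without cells with *Cd8a* and *Cd8b1*, each outside its counting interval.

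Shares of cells as deposited were 32.3% and 10.3% (*Ccl3*), 58.5% and 22.5% (*Ccl4*) and 99.5% and 44.6% (*Ccl5*) in small intestine and spleen. At equal depth with at least 2 UMIs they were 9.40% and 3.89%, 32.4% and 9.81%, and 94.5% and 17.0%. Of 5 further draws, 1 moved intestinal *Ccl5*, to 97.3%. *Ccl3* in intestinal cells with *Ccl4* was 44.6% as deposited and 20.4% at equal depth with at least 2 UMIs. *Ccl4* in cells with *Ccl3* was 80.8% as deposited in small intestine, and 91.1% at equal depth with at least 2 UMIs in spleen.

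The level of the highest cluster with 15 neighbours was 1753 for intestinal *Ccl4* and 441, 2695 and 10563 for splenic *Ccl3*, *Ccl4* and *Ccl5*. With chemokine genes kept in the clustering, which then uses the genes compared, it was 457 and 2252 for intestinal *Ccl3* and *Ccl4* and 1734, 7745 and 25715 in spleen. Genes higher in small intestine numbered 1576 with a minimum of 10 UMIs and 246 at 4-fold, and 345 were 4-fold higher in spleen. The splenic difference of *Ccl5* by *Il10*, -0.13 as deposited, reversed to 0.16 at equal depth. Where no construction is named, the cause was not tested.

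With 1 library per tissue, animals, isolation and library cannot be told apart from tissue, and intervals cover counting error only. No paired analysis was possible because each tissue has 1 sample. The alternative without shared barcodes gave no value, since 0 were shared.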
